A study of Mus musculus with 28 samples.

Results

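Bile duct cells (cholangiocytes) are a small share of the cells of a liver, and 7 of their marker genes (Krt7, Krt19, Sox9, Spp1, Cftr, Cd24a and Prom1) together with the trefoil peptide gene Tff3 were followed across 5 diet groups of mice. The members were the genes whose name in the scanner files was 1 of these 8 symbols, which took 13 of 41174 probes and 8 of 27729 gene names on the array. Tff3 was chosen by its measured difference between HFD and SD livers of these same mice, so that difference is described here and not tested as a finding. Whole liver RNA was measured in 28 male C57/6J mice, with 1 Agilent 1-colour array per mouse, to look at the regulatory effects of quercetin and resveratrol given with a high fat diet. The HFD group was fed a high fat diet (6 livers). The HQ group was fed that diet with 0.4% quercetin (5 livers), the HR group with 0.4% resveratrol (6 livers), and the HQR group with 0.2% of each compound (6 livers). The SD group was fed a standard diet (5 livers). Mice began the diets at 7 weeks of age, kept them for 26 weeks and were 33 weeks old at the end; the labels give no genetic change for any group, and RNA of 2 further mice was left out of the arrays by the submitters because it was degraded. Quercetin is a plant flavonol and resveratrol a plant stilbene.

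Cholangiocytes line the bile ducts and modify bile by moving chloride, bicarbonate and water. They differ from hepatocytes in their cytoskeleton, with the keratins Krt7 and Krt19, and in the transcription factor Sox9, which acts downstream of Notch signalling during duct formation in mice. Trefoil peptides are small secreted proteins that act with mucins to protect and repair epithelia; Tff3 is the form best known from goblet cells of the intestine, and it is also known in bile ducts and, in mouse, in hepatocytes.

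What each array reads for a gene is a stretch of its transcript, and the probes are shown because the members were read by 1 to 3 probes that did not always move together. The positions are on mouse build mm9, as in the scanner files; exon, intron and UTR annotation of that build was not used here. Tff3 and the brighter Krt7 probe hold the polyadenylation signal AATAAA (capitals, searched on the probe strand), which 4.78% of all 41174 probes hold. For these, and for the brighter Cftr probe, a stretch of 30 bases is given. The other probes shown are whole.
Tff3, chr17:31262279-31262338, minus strand, bases 1 to 30 of 60: ctgctgcaggccAATAAAggagccaggagt
Krt7, brighter probe, chr15:101258172-101258231, plus strand, bases 20 to 49 of 60: gctgttggctttAATAAAgggcctctctga
Krt7, dimmer probe, chr15:101253718-101253777, plus strand: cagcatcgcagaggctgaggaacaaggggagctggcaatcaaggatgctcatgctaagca
Krt19, chr11:100002392-100002451, minus strand: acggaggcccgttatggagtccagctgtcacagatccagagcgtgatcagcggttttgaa
Sox9, probe that spans 853 bases of the genome with its 60 bases, chr11:112644310-112645162, plus strand: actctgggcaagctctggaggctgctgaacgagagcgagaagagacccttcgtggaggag
Cftr, brighter probe, chr6:18272483-18272542, plus strand, bases 1 to 30 of 60: cactagctattttaaaacaggggagtgagg
Cftr, dimmer probe, chr6:18217739-18217798, plus strand: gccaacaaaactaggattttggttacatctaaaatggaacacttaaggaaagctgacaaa
The Tff3 probe holds AATAAA at 2 places, 1 of them in the stretch shown; this signal usually stands shortly before the poly(A) tail of a transcript. The 2 Cftr probes start 54744 bases apart.

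Levels are given on the log2 scale relative to the 75th percentile of each array, so 1 unit is a doubling, and levels of different probes are not set against each other. Across the arrays, 59.8% to 82.3% of probes were well above background by the scanner software's call and no spot was saturated; the number of arrays limits the precision. The label of the tissue was checked on hepatocyte markers: all 10 that were tested of 12 listed were well above background on every array. Of the members, Tff3, Krt7, Krt19, Sox9, Spp1, Cftr and Cd24a were well above background on all 28 arrays by their main (brightest) probe, and Prom1 on 10 of 28. In 1 liver, HQ replicate 1, the mean of 7 exocrine pancreas genes was -0.30, against -4.31 to -2.38 in the other 27 livers; the pancreatic enzyme gene Cpa1 was at 2.41 there, against -5.77 to -0.29 elsewhere.

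Tff3 was lower in the livers of all 4 high fat groups than in SD livers, by the group means, and no difference among the 4 high fat groups passed the test. In HFD livers its level ran between -3.35 and -1.41 with a median of -2.61. In HQ livers it was -2.12, -1.83, -2.42, -2.50 and -1.50. The HQ livers lay within the range of the HFD livers. In HR livers it ran between -2.62 and -1.80 with a median of -2.41, and in HQR livers between -2.77 and -1.83 with a median of -2.48. In SD livers it was -0.82, -1.59, -0.42, -0.12 and 0.06. SD replicate 2, at -1.59, was the lowest SD liver and lay below the highest HFD liver (replicate 5, -1.41) and the highest HQ liver (replicate 5, -1.50), while no HR or HQR liver reached any SD liver. Of all genes with complete values, 0.351% had every HR liver and 0.429% every HQR liver below every SD liver. Ordered by mean, the groups ran HFD (-2.50 ± 0.68, n = 6), HQR (-2.38 ± 0.36, n = 6), HR (-2.34 ± 0.31, n = 6), HQ (-2.08 ± 0.42, n = 5) and SD (-0.58 ± 0.66, n = 5), all ± SD; neighbours among the 4 high fat groups did not differ beyond their spread. In bulk RNA such as this, fewer cells of a type and less RNA per cell cannot be told apart.

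**Figure D1:**
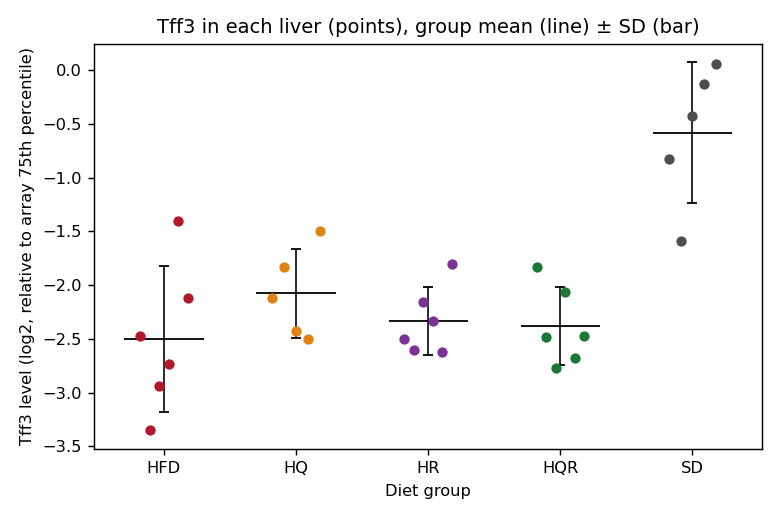
Tff3 level on each array, in log2 units relative to the 75th percentile of the array, for the HFD, HQ, HR, HQR and SD groups. Points are livers, lines are group means and bars ± SD. SD replicate 2 at -1.59 is the only SD liver within the range of the HFD livers.

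The difference of HFD from SD livers was -1.92 ± 0.30 (SE), or 3.79-fold lower, with all 6 HFD livers below the SD mean. This is the contrast by which Tff3 was chosen, and nothing is read from the test in it; among all 21849 genes tested with limma, 0.114% were called in that contrast, at a Benjamini-Hochberg adjusted p under 0.05. The 3 supplemented groups were then set against the same 5 SD livers, so these differences are not independent of that choice. HQR livers differed by -1.80 ± 0.30 (3.49-fold lower, limma adjusted p = 0.00715), where 0.0503% of genes were called, and HR livers by -1.76 ± 0.30 (3.38-fold lower, limma adjusted p = 0.0153), where 0.0549% were called. The HR call was lost without SD replicate 4 (adjusted p = 0.0927) and without SD replicate 5 (adjusted p = 0.0603). HQ livers differed by -1.49 ± 0.31, which did not pass (limma adjusted p = 0.110, with 0.0366% of genes called), and passed without SD replicate 2 (-1.75, adjusted p = 0.0179) or without HFD replicate 5 (-1.49, adjusted p = 0.0427). With normexp background correction in place of the scanner's own correction, no Tff3 difference from SD passed (HFD -1.32, HQ -0.70, HR -0.99 and HQR -1.21), nor did HR or HQR pass with only the arrays of the compared groups in the fit (adjusted p = 0.161 and 0.0829).

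The supplement comparisons ask whether either compound changed Tff3 on a high fat diet. HQ livers differed from HFD livers by 0.43 ± 0.30 (95% interval -0.19 to 1.05), HR livers by 0.17 ± 0.29 (-0.42 to 0.76) and HQR livers by 0.12 ± 0.29 (-0.47 to 0.71). None of these passed, each with a limma adjusted p of at least 0.987. The intervals leave room for a rise of up to 1.05 with quercetin. Between the compounds at the same 0.4%, HQ and HR livers, the difference was 0.26 ± 0.30 (-0.36 to 0.88). The mixture, with 0.2% of each compound, differed from HQ by -0.31 ± 0.30 (-0.93 to 0.31) and from HR by -0.05 ± 0.29 (-0.64 to 0.54), at doses that are not matched. These comparisons did not use SD livers, but those against HFD used the HFD livers by which Tff3 was chosen. The differences from HFD are thus not independent of that choice. In 5 of the 6 comparisons none of 21849 genes were called by limma (0% in HQ and HQR against HFD and among the supplemented groups), while 0.00915% were called in HR against HFD. At an unadjusted p under 0.05, these 5 comparisons held 465 genes (HQ against HFD), 298 (HQR against HFD), 282 (HQ against HR), 312 (HQR against HQ) and 606 (HQR against HR).

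The arrays lay on 9 slides. Slides took 11.5% of the variance of Tff3 over the 28 livers and diet groups 69.1%; both shares include the HFD and SD livers by which Tff3 was chosen, and they are given as a description. Within slides that held both groups, Tff3 was lower in the high fat liver each time: by -2.81 to -1.65 for HFD against SD on 4 slides, by -2.08 to -1.29 for HQ on 2 slides, by -2.21 to -1.01 for HR on 3 slides and by -2.65 to -1.01 for HQR on 3 slides. The HFD and SD livers here are those by which Tff3 was chosen. The HQ, HR and HQR differences share those SD livers, so these signs are not independent of that choice and are a description only. Against HFD livers the within-slide differences took both signs for HR (-0.40 to 0.75, 4 slides) and HQR (-0.66 to 0.64, 4 slides), and were above 0 on both slides for HQ (0.36 and 1.24).

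**Figure D2:**
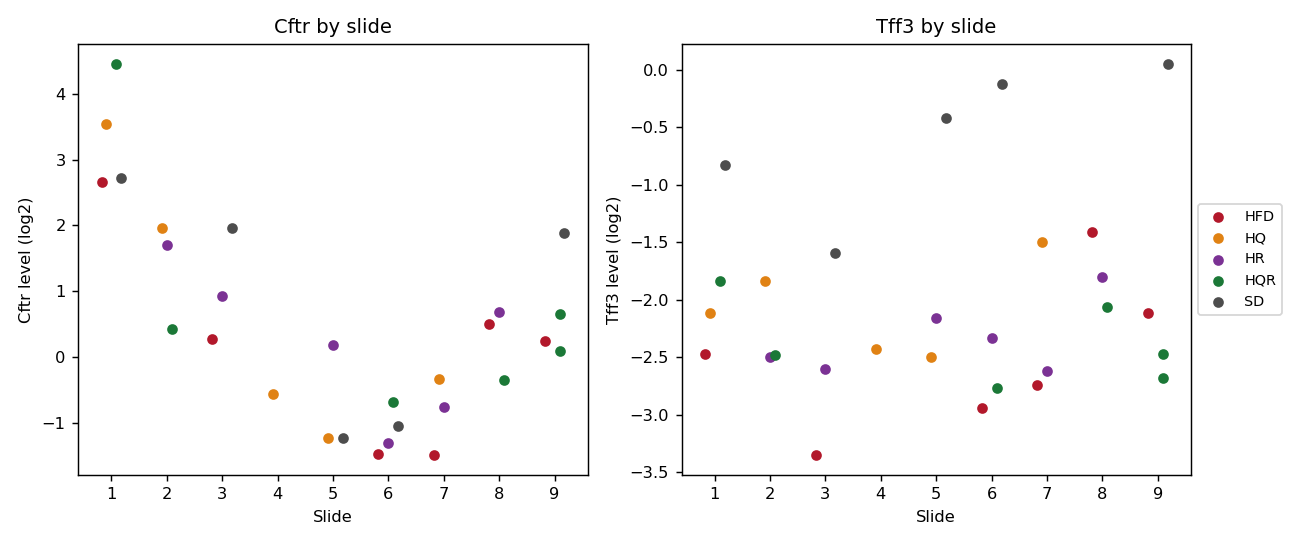
Levels of Cftr (left) and Tff3 (right), in log2 units relative to the 75th percentile of the array, by slide, with 1 point per liver coloured by diet group. Cftr runs together by slide, with all 4 livers of slide 1 between 2.66 and 4.46, while the Tff3 points of SD lie above the high fat livers of the same slide. The HFD and SD livers are those by which Tff3 was chosen.

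None of the 84 differences of the 7 duct markers (7 genes in 12 comparisons) passed, and none had an unadjusted limma p under 0.05 (lowest 0.0895, adjusted p = 0.889), against 1.29% to 7.19% of all genes at that unadjusted p in the 12 comparisons. Neither did any of the 48 differences of their further probes (lowest unadjusted p = 0.142). Of the 8 members, 1 (Tff3) was called in HR and in HQR against SD and 0 in HQ against SD or in any comparison without SD livers. The HR and HQR calls use the SD livers by which Tff3 was chosen, so they are not independent of that choice. Tff3 was also called in HFD against SD and in the 4 high fat groups together against SD, where 0.16% of all genes were called. Those comparisons hold both the HFD and the SD livers by which it was chosen, and nothing is read from them. No member was called in the 3 supplemented groups together against HFD, where 0.00458% were. The median difference of the 8 members was -0.17 in HFD against SD, where the median of all genes was -0.04, with 5 members below 0 and 3 above. These include Tff3 (-1.92), chosen on this contrast, so nothing is read from that median. The 7 markers were at -0.74 (Cftr), -0.55 (Prom1), -0.31 (Sox9), -0.02 (Krt7), 0.06 (Krt19), 0.36 (Spp1) and 0.47 (Cd24a).

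**Figure D3:**
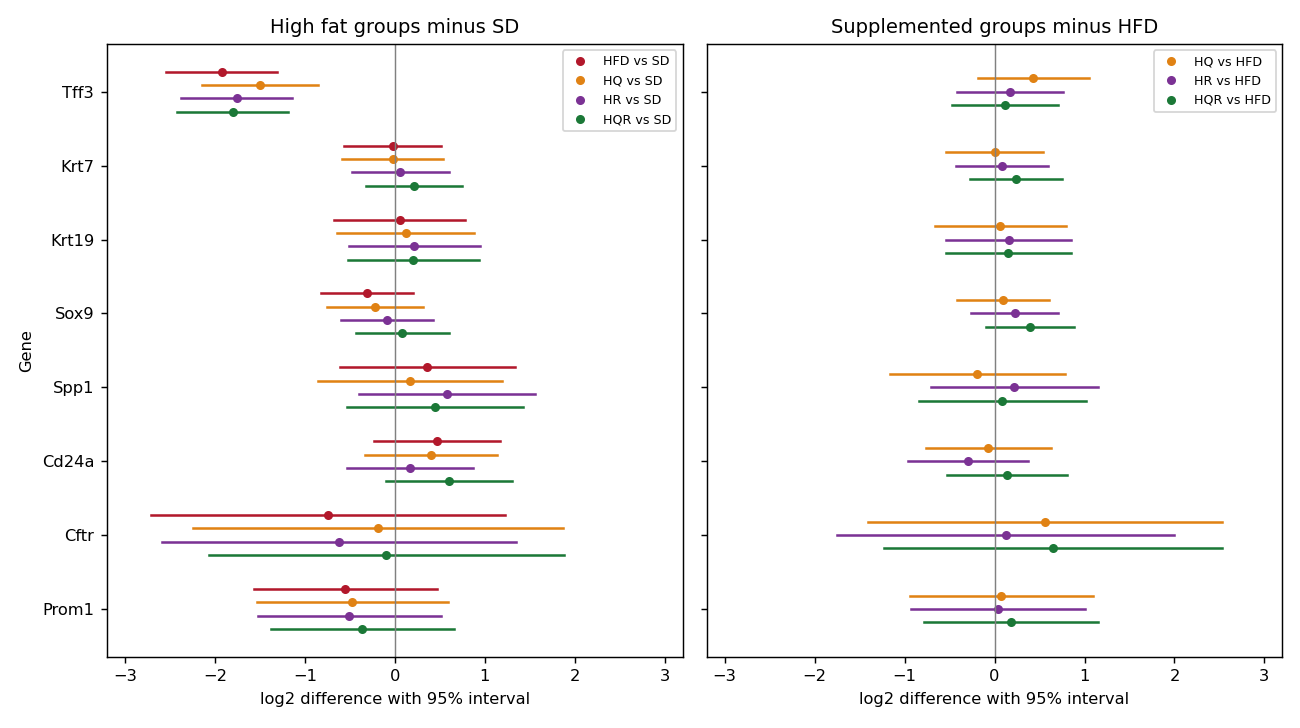
Differences in log2 level of the 8 genes, high fat groups minus SD on the left and supplemented groups minus HFD on the right; points are limma estimates and lines 95% intervals. The Tff3 intervals against SD lie wholly below 0, while each interval of the other 7 genes crosses 0.

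The keratins are the intermediate filament proteins by which duct cells are usually stained. Krt7 averaged -0.19 ± 0.39 in HFD (n = 6), -0.19 ± 0.55 in HQ (n = 5), -0.10 ± 0.46 in HR (n = 6), 0.05 ± 0.39 in HQR (n = 6) and -0.16 ± 0.38 in SD livers (n = 5). Krt19 averaged -0.89 ± 0.55 in HFD, -0.83 ± 0.53 in HQ, -0.73 ± 0.42 in HR, -0.74 ± 0.62 in HQR and -0.95 ± 0.87 in SD livers, with the same n. The groups overlapped for both keratins. Within groups and slides Krt19 ran with the mean of the stellate cell and fibroblast markers (r = 0.74, permutation p adjusted over 80 relations = 0.00107), which it did not over the livers (r = 0.11, rho = 0.12, adjusted p = 0.781 and 0.734). Here and below, permutation p-values within groups and slides are too small, because deviations were shuffled as if no means had been removed. A pass within groups and slides is therefore a description only. HFD differed from SD by -0.02 for Krt7 (95% interval -0.56 to 0.51) and by 0.06 for Krt19 (-0.67 to 0.78). The dimmer Krt7 probe correlated with the brighter one over the 28 livers at r = 0.42 (Spearman rho = 0.44, r = 0.45 without the 2 livers farthest from the median, permutation p adjusted over 6 probe pairs = 0.025 for each).

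Sox9, the transcription factor of duct cells, averaged 0.78 ± 0.19 in HFD, 0.87 ± 0.48 in HQ, 1.00 ± 0.35 in HR, 1.17 ± 0.53 in HQR and 1.09 ± 0.43 in SD livers by its brightest probe. HFD differed from SD by -0.31 (-0.82 to 0.20) and HQR from HFD by 0.39 (-0.10 to 0.88). By this probe all 6 HFD livers lay below the SD mean, and 5 of them within the range of the SD livers. For HFD against SD, the probe spanning 853 bases gave -0.36 (-1.15 to 0.44). The probe farthest along the gene gave 0.31 (-0.49 to 1.11), so the sign differed between probes. The 3 Sox9 probes did not run together. The brightest correlated with the other probes at r = 0.30 and 0.26, neither past the threshold (permutation p adjusted over 6 probe pairs = 0.14 and 0.185; Spearman rho 0.14 and 0.44, adjusted p = 0.476 and 0.0250). The probe spanning 853 bases and the probe farthest along the gene ran in opposite directions (r = -0.49, rho = -0.52, r = -0.41 without the 2 farthest livers, r = -0.56 within groups and slides, permutation p adjusted = 0.0142 and 0.0099 for r and rho).

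Spp1 encodes osteopontin, a secreted matrix protein made by duct cells and by macrophages of damaged liver. Its level in HFD livers ran between 3.78 and 5.09 with a median of 4.39. In HQ livers it was 2.32, 4.47, 4.68, 4.31 and 5.23, and in HR livers it ran between 2.75 and 5.33 with a median of 4.95. HQ replicate 1 and HR replicate 3 stood below the rest of their groups, and HQ replicate 1 is the liver with the exocrine pancreas genes. It lay on slide 1, whose 4 livers were each the lowest of their group for Spp1 (2.32 in HQ, 3.78 in HFD, 3.71 in HQR and 2.72 in SD); the part of the slide and of the pancreas genes in the values was not tested. In HQR livers it ran between 3.71 and 5.43 with a median of 4.41, and in SD livers it was 2.72, 3.54, 4.79, 4.87 and 4.26. The groups overlapped, and HFD differed from SD by 0.36 ± 0.47 (-0.61 to 1.34). Slides took 66.7% of the variance of Spp1. Over the 28 livers Spp1 ran against the mean of the exocrine pancreas genes (r = -0.60, rho = -0.53, r = -0.35 without the 2 farthest livers; permutation p adjusted over 80 relations = 0.0117 and 0.0247), which did not pass within groups and slides (r = -0.35, adjusted p = 0.279). By rho Spp1 also ran against the B cell (rho = -0.53, permutation p adjusted = 0.0253) and neutrophil markers (rho = -0.52, 0.0261). Neither passed by r (r = -0.32 and -0.37, permutation p adjusted = 0.305 and 0.222) or within groups and slides (0.729 and 0.852).

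Cd24a encodes a small surface glycoprotein of duct and progenitor cells that is also present on red blood cells in mouse. It averaged -1.10 ± 0.32 in HFD, -1.17 ± 0.84 in HQ, -1.40 ± 0.84 in HR, -0.97 ± 0.22 in HQR and -1.57 ± 0.40 in SD livers. All 6 HQR livers and all 6 HFD livers lay above the SD mean, and both groups overlapped SD. The differences from SD were 0.60 ± 0.34 (-0.10 to 1.30) for HQR and 0.47 ± 0.34 (-0.23 to 1.17) for HFD. Over the 28 livers Cd24a ran with the mean of 5 erythroid genes (r = 0.66, rho = 0.65, r = 0.65 without the 2 farthest livers, r = 0.53 within groups and slides; permutation p adjusted over 80 relations of 8 members with 10 marker lists = 0.0022, 0.00366 and, within groups and slides, 0.0289). Within groups and slides it also ran against the exocrine pancreas genes (r = -0.61, permutation p adjusted = 0.0199). The genes of most like pattern were the globins Hbb-bt (r = 0.80), Hba-a1 (r = 0.77) and Hba-ps4 (r = 0.77). The mean erythroid level ran between -0.89 and 0.39 in HFD, -0.45 and 0.94 in HQ, -0.74 and 0.14 in HR, -0.49 and 0.71 in HQR and -0.62 and 0.34 in SD livers, so the groups overlapped; its part in the Cd24a values was not tested.

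Cftr encodes the chloride channel through which duct cells secrete into bile. By its main probe it had the widest spread of the 8 genes, 5.96 log2 units over the livers, and 85.4% of its variance lay between slides and 3.68% between diet groups, where the medians of all genes with complete values were 51.2% and 10.1%. On slide 1 the 4 livers (1 each of HFD, HQ, HQR and SD) were between 2.66 and 4.46, and on slide 6 the 4 livers were between -1.48 and -0.69. HFD differed from SD by -0.74 ± 0.96 (-2.71 to 1.23). The genes of most like pattern over the 28 livers were Ly6g6e, Myh3 and Cd209f, each at r = 0.99, and still at r = 0.99, 0.96 and 0.99 within groups and slides. The second Cftr probe, 54744 bases away, was well above background on only 3 of 28 arrays, so most of its values were near background. It correlated with the main probe at r = 0.55 (rho = 0.59, r = 0.53 without the 2 farthest livers, r = 0.65 within groups and slides). The permutation p adjusted over 6 probe pairs was 0.00906 for r and 0.00357 for rho. The main probe also ran against the mean of 10 hepatocyte markers (r = -0.74, rho = -0.81, r = -0.78 without the 2 farthest livers, r = -0.59 within groups and slides; permutation p adjusted over 80 relations = 0.0008, 0.000267 and 0.011). By r it passed with 2 of the 10 lists over the livers, the other being the exocrine pancreas genes (r = 0.63, rho = 0.70, r = 0.52 without the 2 farthest livers, permutation p adjusted = 0.00384 and 0.00208). By rho the main probe also passed with T and NK cell genes (rho = 0.57, permutation p adjusted = 0.0150) and intestinal epithelium genes (rho = 0.55, 0.0202). Neither passed by r (r = 0.42 and 0.46, permutation p adjusted = 0.145 and 0.0919). Within groups and slides it passed with 3 lists, hepatocyte markers, intestinal epithelium genes (r = 0.76, adjusted p = 0.0008) and T and NK cell genes (r = 0.64, adjusted p = 0.0036). Whether the main probe reads Cftr transcript was not tested.

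Prom1 encodes a membrane protein of duct and progenitor cells. It was close to background: both its probes were below the well-above-background call in all 5 HQ livers, so no fold is given for that group. By the main probe, HFD livers ran between -6.10 and -3.46, HR livers between -5.77 and -3.62, HQR livers between -5.51 and -2.79 and SD livers between -4.69 and -3.43. The groups overlapped, and HFD differed from SD by -0.55 ± 0.49 (-1.57 to 0.47). By the other Prom1 probe that difference was 0.06 (-0.84 to 0.95). Over the 28 livers Prom1 passed with 5 of the 10 marker lists of other cell types, on values of which most were not well above background. It ran with the means of 7 intestinal epithelium genes (r = 0.77, rho = 0.76, r = 0.70 without the 2 farthest livers; permutation p adjusted over 80 relations = 0.0008 and 0.000267) and of 7 T and NK cell genes (r = 0.74, rho = 0.81, r = 0.72 without the 2 farthest livers; permutation p adjusted = 0.00107 and 0.000267). These also passed within groups and slides (r = 0.65 and 0.71, permutation p adjusted = 0.0024 and 0.00107). The neutrophil (r = 0.60), exocrine pancreas (r = 0.54) and B cell lists (r = 0.52) passed over the livers but not within groups and slides. The part of these lists in the Prom1 values was not tested.

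**Figure D4:**
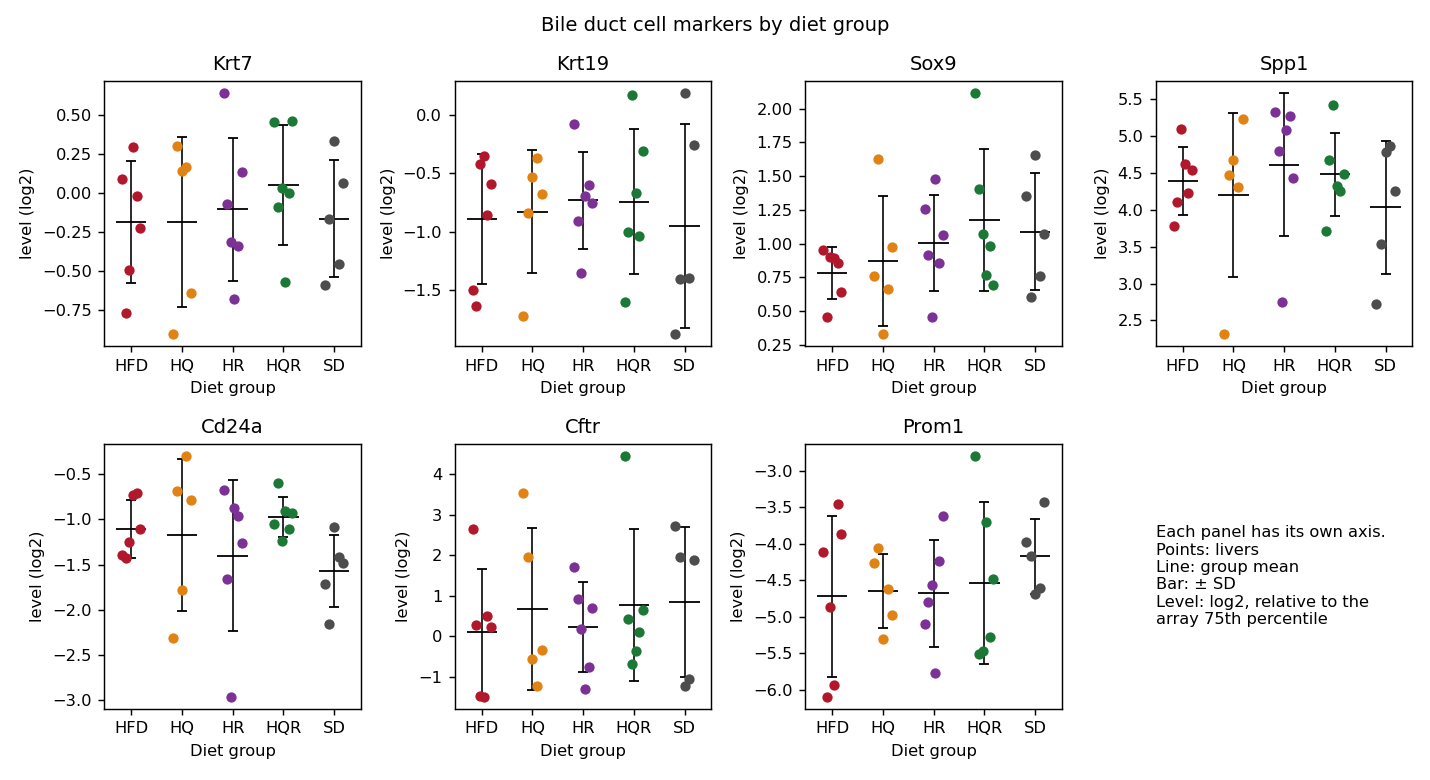
Levels of the 7 duct cell markers on each array, in log2 units relative to the 75th percentile of the array, with a separate axis for each gene. Points are livers, lines group means and bars ± SD; in every panel the livers of the 5 diet groups overlap.

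Whether the members ran together from liver to liver was asked over the 28 arrays. Of 28 pairs, 8 passed (permutation p for Pearson's r adjusted over 28 pairs, two-sided, with 100000 resamples), 9 did so on deviations from group means and 7 on deviations from group and slide means. All 7 of those were among the duct markers. The counts of 9 and 7 rest on permutation p-values that are too small, because deviations were shuffled as if no means had been removed. Krt19 and Spp1 correlated at r = 0.73 (rho = 0.66, r = 0.64 without the 2 livers farthest from the Krt19 median, permutation p adjusted = 0.00028 and 0.00462), and at r = 0.66 within groups and slides (adjusted p = 0.00196). Spp1 and Cd24a correlated at r = 0.65 (rho = 0.42, r = 0.56 without the 2 farthest, permutation p adjusted = 0.00439 and, for rho, 0.0884), and at r = 0.78 within groups and slides (adjusted p = 0.00028, from the smallest p that these permutations can give). Krt7 and Krt19 correlated at r = 0.47 (rho = 0.48, r = 0.33 without the 2 farthest, permutation p adjusted = 0.0400 and 0.0412), and at r = 0.56 within groups and slides (adjusted p = 0.0108). The negative correlations of Cftr with Spp1 (r = -0.63, rho = -0.60, r = -0.48 without the 2 farthest, permutation p adjusted = 0.00439 and 0.00737) and with Krt19 (r = -0.58, rho = -0.54, r = -0.46 without the 2 farthest, permutation p adjusted = 0.00823 and 0.0192) did not pass within groups and slides.

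**Figure D5:**
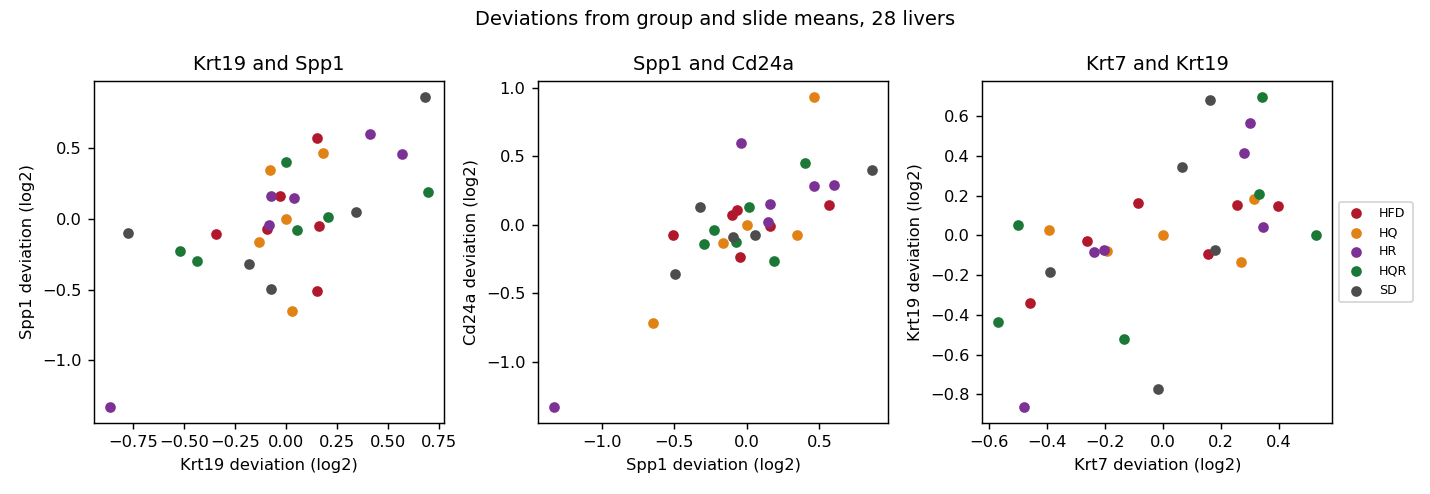
Deviations of 3 pairs of duct markers from their group and slide means, in log2 units, with 1 point per liver coloured by diet group. The points rise together for Krt19 and Spp1 (r = 0.66), Spp1 and Cd24a (r = 0.78) and Krt7 and Krt19 (r = 0.56).

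Tff3 did not run detectably with the keratins or with osteopontin: it correlated with Krt7 at r = 0.01 (rho = -0.02), with Krt19 at r = -0.05 (rho = -0.17) and with Spp1 at r = -0.17 (rho = -0.29), none past the threshold (permutation p adjusted = 0.973, 0.834 and 0.554 for r). The 1 member it ran with over the livers was Prom1 (r = 0.51, rho = 0.64, r = 0.53 without the 2 farthest livers, permutation p adjusted = 0.024 and 0.00462). On deviations from group means that pair passed too (r = 0.60, permutation p adjusted = 0.00437). Within groups and slides none of the 7 pairs with Tff3 passed (r = -0.12 to 0.45). The highest there were Cftr (r = 0.45, permutation p adjusted = 0.0593), Sox9 (r = 0.40, 0.0801) and Prom1 (r = 0.39, 0.0801). Prom1 was well above background on only 10 of the 28 arrays, so most of its values here are near background. Among 10 marker lists of other cell types, Tff3 ran with the mean of 7 intestinal epithelium genes (r = 0.54, rho = 0.67, r = 0.46 without the 2 farthest livers, r = 0.68 within groups and slides; permutation p adjusted over 80 relations = 0.0272, 0.00253 and, within groups and slides, 0.0024). This list also ran with Prom1 and, by rho over the livers and by r within groups and slides, with Cftr, as given above. By rho, Tff3 passed with the exocrine pancreas genes too (rho = 0.59, r = 0.26, r = 0.48 without the 2 farthest livers, permutation p adjusted = 0.0101 and, for r, 0.447). Over the 28 livers, the Tff3 values include those of the HFD and SD livers by which it was chosen. Its correlations over the livers, with Prom1 and with these lists, and their p-values are thus not independent of that choice. The intestinal mean ran between -2.00 and -0.43 in HFD, -1.60 and -0.71 in HQ, -1.49 and -0.66 in HR, -1.34 and -0.73 in HQR and -1.43 and -0.60 in SD livers. The groups overlapped; 3 of the 7 genes were well above background on every array, and the part of this list in the Tff3 values was not tested.

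The genes whose pattern over the 28 livers was most like that of Tff3 were Hsbp1l1 (r = 0.79), Mmd2 (r = 0.79), Enho, which encodes the secreted peptide adropin (r = 0.78), Lgi4 (r = 0.78) and Syne4 (r = 0.765). Within groups and slides these correlations were 0.55, 0.63, 0.65, 0.30 and 0.53. Mmd2 was dim, with levels down to -4.96 in HFD livers, and was not well above background on part of the arrays of the high fat groups. The genes of most opposite pattern were a probe with no gene name (r = -0.79), Cfd, which encodes the complement protease adipsin (r = -0.79), Tmem164 (r = -0.73), Cidea, a protein of lipid droplets (r = -0.69), and Osbpl3 (r = -0.69). Within groups and slides these were -0.40, -0.08, -0.28, -0.21 and -0.46. The correlations over the 28 livers include the HFD and SD livers by which Tff3 was chosen, so they are not independent of that choice. On deviations from group means the like genes were at r = 0.73, 0.72, 0.27, 0.55 and 0.54, in the order given. The opposite ones were at -0.47, -0.29, -0.50, -0.30 and -0.40. For the duct markers the nearest patterns were Ddr1 for Krt7 (r = 0.74, and 0.81 within groups and slides), a collagen receptor of epithelia; Vhl for Krt19 (r = 0.76, and 0.60); Plet1 for Sox9 (r = 0.72, and 0.58); and Kcnk1, a potassium channel, for Spp1 (r = 0.85, and 0.83). For Prom1, near background on most arrays, it was Meox1 (r = 0.90, and 0.81).

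Further genes of the ducts were read from a list of 30, of which 29 were tested. None passed in any of the 12 comparisons. In HFD against SD, 17 lay below 0 and 12 above, with a median of -0.15. At an unadjusted limma p under 0.05, 5 of the 29 were found in HFD, 4 in HQ and 3 in HR against SD. Among all genes the shares were 6.14%, 3.91% and 5.72%. Against HFD, 0 were found in HQ, 2 in HR and 2 in HQR, beside 2.13%, 4.92% and 1.36% of all genes. The list as a set was not tested. Krt23, a keratin, averaged 1.68 ± 0.82 in HQR livers (n = 6) and -0.82 ± 0.70 in SD livers (n = 5). Every HQR liver, at 0.79 to 3.22, lay above every SD liver, at -1.68 to 0.14, and 0.374% of all genes with complete values had this pattern. The difference of 2.50 ± 0.52 did not pass (limma adjusted p = 0.0569), and it passed under other settings, such as slide as a block (adjusted p = 0.0448). The Krt23 differences of the other high fat groups from SD were 1.84 for HR, 1.59 for HFD and 1.52 for HQ. Anxa13, an annexin of epithelia, averaged 1.64 ± 0.74 in HR and 0.65 ± 0.35 in HFD livers (limma adjusted p = 0.761).

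Other genes around the members also stayed short of the threshold. Of 16 tested trefoil and mucus genes, 14 lay below 0 in HFD against SD with a median of -0.25, and none passed or had an unadjusted p under 0.05; Muc2, the main mucin of the intestine, was well above background on 7 of 28 arrays and averaged -4.89 in HFD and -4.32 in SD livers. Of 25 tested genes of the Notch and Hippo pathways upstream of Sox9, 8 lay below 0 and 17 above, with a median of 0.09; Notch2, a Notch receptor, differed by -0.43 ± 0.18 (limma adjusted p = 0.712). Of 14 osteopontin receptors and partners, 9 lay below 0 and 5 above, with a median of -0.08; Itga5, an integrin subunit, differed by -0.60 ± 0.33 (limma adjusted p = 0.869). The medians stand beside -0.04 for all genes in that comparison.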

How the data were processed

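Liver RNA of 28 mice was read on 1 array each. Spot intensities were made by the authors with Agilent Feature Extraction 10.5.1.1 from 1-colour scans, per the file headers; the processed intensity was background-subtracted and detrended within the array. The deposited value table holds a score per probe whose scale is not stated; it followed the log2 signal (r at least 0.9999 on each array, 3.25 log2 units per score unit; column medians -0.169 to -0.099) and served as an alternative. Groups and replicate numbers are those of the labels.

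Log2 of the processed intensity was used after scaling to the 75th percentile of non-control probes, outlier spots were left out and spots of a probe averaged. Probes well above background on at least 5 arrays were kept (32074 probes, 21849 genes). The brightest kept probe stood for a gene. Symbols were updated through RefSeq names (25089 probes by accession, 6339 by symbol, 1639 by synonym; 8107 kept the array's name). All arrays were fitted together with limma 3.58.1 (R 4.3.3; lmFit, eBayes), two-sided, with Benjamini-Hochberg adjustment over all genes; the script was tested on simulated data. Correlations used 100000 permutations (numpy and scipy). Deviations were shuffled without allowing for the removed group and slide means, so their p-values are too small. Each array is a separate mouse.

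Alternatives were quantile and median scaling, normexp (offset 50), other filters, the mean of all probes, the deposited table, only the compared groups, trend and robust moderation, array weights, slide, scan day and replicate number as blocks, and each array left out. Same-numbered HFD and SD livers deviated together (5 pairs, r = 0.217 to 0.698), which held in none of 9 further pairings; this comes from the values, not the labels. The members, lists and tests were chosen with earlier results of these data known, and the relations with marker lists were added after the data were seen. Named genes are all members, up to 4 of each list (called first, then smallest p), and the genes of highest or lowest correlation with a member.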

Additional observations from a re-analysis of the deposited data

Results flagged for a closer look

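In 4 of 65 combinations of a member probe and a diet group, 1 liver stood far from the rest of its group by Dixon's test. Chance flags about 1 in 20 such combinations. The dimmer Krt7 probe was at -6.27 in HQ replicate 5, far below the other HQ livers, and at -0.91 in SD replicate 5, above the other SD livers. Spp1 was at 2.75 in HR replicate 3, below the other HR livers. Cftr was at 4.46 by its main probe in HQR replicate 1, above the other HQR livers.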

How the results depend on the processing

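Of the members, the call of Tff3 was the 1 that moved with the processing, and the cause was not tested. The count of members called in HFD against SD, the comparison by which Tff3 was chosen, was 1; it was 0 with normexp background correction (Tff3 -1.32, adjusted p = 0.0918) and 0 with only the compared arrays in the fit (adjusted p = 0.151), where fewer samples estimate the spread. In HR and HQR against SD the count of 1 was 0 with normexp (adjusted p = 0.576 and 0.195) and 0 with the compared arrays only (0.161 and 0.0829), and over the 4 high fat groups it was 0 with normexp (-1.05, adjusted p = 0.0934). Normexp moved the median of all genes to -0.14 for HFD, 0.19 for HQ, 0.05 for HR and -0.07 for HQR, each minus SD; relative to it, Tff3 was at -1.18, -0.89, -1.03 and -1.14. In HQ against SD the count of 0 was 1 with quantile normalization, array median scaling, the deposited table and slide as a random block (adjusted p = 0.00953, 0.0116, 0.00628 and 0.0131). Leaving out 1 array in turn, counts of 0 to 1 were seen in HQ and HR against SD, and the Tff3 difference from SD stayed at -2.18 to -1.75 for HFD, -1.75 to -1.34 for HQ, -2.01 to -1.60 for HR and -2.06 to -1.64 for HQR. With the replicate block, Tff3 was at -1.81 in HR and -1.86 in HQR against SD (adjusted p = 0.0173 and 0.00719), and no call of a member changed. With slide as a block it was at -1.84 and -2.13 (adjusted p = 0.00358 and 0.000685). All genes called with slide as a block were 107 over the 4 high fat groups, 50 in HQR, 27 in HR and 13 in HQ, each against SD, and 2 in HQR and 1 in HR against HFD; without it they were 35, 11, 12, 8, 0 and 2. With the replicate block 1 was called in HQR against HFD. Across quantile, array median, normexp and deposited values, all genes called ran from 17 to 32 in HFD (25 as reported), 4 to 14 in HQ (8), 1 to 12 in HR (12), 6 to 20 in HQR (11) and 18 to 30 over the 4 high fat groups (35), each against SD, and 0 to 1 in HQ (0), 1 to 4 in HR (2), 2 to 3 in HQR (0) and 3 to 4 in the 3 supplemented groups (1), each against HFD. Krt23 passed in HQR against SD in 11 of the 43 alternatives. Over the 4 high fat groups against SD, Krt23 passed under some alternatives, such as slide as a random block (limma adjusted p = 0.0214) and without HQ replicate 4 (0.0328). Onecut1 passed there with slide as a block. Of 4116 member differences under the alternatives, 240 turned their sign, none of them called. The remaining counts of members, and the correlations between members (9 and 7 pairs against 8), kept within 1.5 times. The counts of 9 and 7 pairs rest on permutation p-values that are too small, as given above.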
